A study of Mus musculus with 9 samples.

Results

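The cytochrome P450 enzymes of families 1 to 3 were followed in mouse liver as 54 probe sets of the Affymetrix Mouse Gene 1.0 ST array, a glass array whose probe sets each measure the RNA of a gene. They were chosen by name, as every probe set whose annotation gave a single gene symbol of the P450 families 1, 2 or 3. They are 54 genes in 17 subfamilies, among 21780 probe sets with 1 symbol and 28815 in all. Another 5 probe sets carry several P450 symbols at the same time. They were kept apart from the members and are described beside their closest relatives.

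The 9 arrays hold the liver RNA of 9 female mice of C57BL/6J background aged 15 to 16 months, with 1 mouse per array and 3 mice per group. WTAL mice were wild-type and fed standard chow (PicoLab Diet) ad libitum. WTCR mice were wild-type and were kept under short-term calorie restriction (CR) on a CR diet, and whether that diet was the same chow is not given in the sources used here. Dgat1-/-AL mice lacked Dgat1 in the whole body, the gene of an enzyme that completes triglycerides from diacylglycerol, and were fed the chow ad libitum. A calorie-restricted Dgat1-/- group is not analysed here. The question was which liver mRNA levels moved with CR, which moved with the loss of DGAT1, and where the 2 states differ.

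P450 enzymes sit in the membrane of the endoplasmic reticulum, hold a haem group, and use oxygen with electrons from P450 reductase or cytochrome b5 to hydroxylate or epoxidise their substrates. Families 1 to 3 carry out most of the first step of drug and toxin clearance in the liver, and many members also act on steroids, bile acids or fatty acids. Their genes answer to sensors of foreign compounds: the aryl hydrocarbon receptor (AHR) for the CYP1 genes, and the nuclear receptors CAR (Nr1i3) and PXR (Nr1i2) for CYP2B, CYP2C and CYP3A genes. In mice many are also set by sex through the rhythm of growth hormone. In the mouse genome the families have expanded into clusters of near-identical neighbours.

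A few promoters are printed first, those of the genes with a shared liver element and those of a pair of close relatives that behaved differently. Of the 54 genes, 45 matched RefSeq promoter windows of build GRCm38.p6 that run from 250 bases before to 50 bases after the transcription start. A nuclear receptor element of the type bound by HNF4A, a liver transcription factor, was searched as CAAAGTCCA on both strands and stood in the windows of 6 of the 45 genes (13.3%), against 0.475% of all 32851 windows. The 150 bases before the start are given 5′ to 3′ on the gene's own strand, in lower case with CAAAGTCCA in capitals.
Cyp3a11 (chr5:145879855-145880004, minus strand): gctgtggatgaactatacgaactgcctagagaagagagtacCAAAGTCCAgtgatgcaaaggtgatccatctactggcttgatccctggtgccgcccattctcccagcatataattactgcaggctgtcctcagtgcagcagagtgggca
Cyp3a16 (chr5:145469724-145469873, minus strand): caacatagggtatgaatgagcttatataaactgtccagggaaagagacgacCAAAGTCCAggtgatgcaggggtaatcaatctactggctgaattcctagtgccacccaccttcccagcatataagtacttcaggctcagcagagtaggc
Cyp2c67 (chr19:39649043-39649192, minus strand): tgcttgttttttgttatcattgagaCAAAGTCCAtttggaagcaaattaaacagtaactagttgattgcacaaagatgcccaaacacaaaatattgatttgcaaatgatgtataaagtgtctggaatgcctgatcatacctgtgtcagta
Cyp2c68 (chr19:39741102-39741251, minus strand): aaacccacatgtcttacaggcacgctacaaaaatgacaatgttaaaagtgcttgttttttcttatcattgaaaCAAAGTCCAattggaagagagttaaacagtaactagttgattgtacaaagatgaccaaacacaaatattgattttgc
Cyp2c70 (chr19:40187287-40187436, minus strand): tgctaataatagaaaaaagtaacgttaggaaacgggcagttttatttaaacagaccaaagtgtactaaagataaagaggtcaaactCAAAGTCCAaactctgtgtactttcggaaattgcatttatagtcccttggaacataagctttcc
Cyp2c65 (chr19:39060856-39061005, plus strand): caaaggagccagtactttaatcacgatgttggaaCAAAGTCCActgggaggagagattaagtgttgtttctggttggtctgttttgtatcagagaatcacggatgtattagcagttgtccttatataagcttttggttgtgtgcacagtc
Cyp3a11 and Cyp3a16, which gave the highest and the lowest difference of the CYP3A members in WTCR livers (1.33, called, and -1.41, not called), were identical at 113 of the 161 columns of a global alignment of these stretches (70.2%). Among the 6 genes with this element 1 rose with CR (Cyp3a11), 1 fell (Cyp2c67) and 4 were not called.

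The second pair is shown because only 1 of its genes rose with CR. The capitals mark TTTATA, the TATA box letters TATAAA on the opposite strand, whose first base lies 28 bases before the start in Cyp2d9 and 31 bases before it in Cyp2d10.
Cyp2d9 (chr15:82452227-82452376, plus strand): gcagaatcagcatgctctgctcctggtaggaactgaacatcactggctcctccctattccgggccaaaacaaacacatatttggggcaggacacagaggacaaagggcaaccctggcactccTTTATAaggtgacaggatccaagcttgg
Cyp2d10 (chr15:82407195-82407344, minus strand): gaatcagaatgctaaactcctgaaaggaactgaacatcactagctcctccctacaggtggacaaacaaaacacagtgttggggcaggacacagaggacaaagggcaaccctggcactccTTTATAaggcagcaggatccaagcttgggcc
These stretches were identical at 126 of 153 alignment columns (82.4%). TATAAA stood in the windows of 22 of the 45 genes (48.9%), against 13.6% of all windows. Of the other motifs searched on both strands, the nuclear receptor hexamer AGGTCA stood in 15 of the 45 (33.3%, all windows 16.3%), the ONECUT1 core ATTGAT in 8 (17.8%, all windows 7.54%) and the AHR core GCGTG in 10 (22.2%, all windows 32.4%). The D-box TTATGTAA, the element of the clock-driven factors DBP, TEF and HLF, stood in 0 of the 45 and in 0.938% of all windows. None of these letter strings contains another. They describe the windows only.

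A difference counted as a call, higher or lower, when the fold between groups was over 1.3 with an unadjusted limma p under 0.05, the p of a linear model that fits 1 mean per group over all 9 arrays. Signals are log2 values after RMA, in which a difference of 1 is a doubling, and they compare groups for the same probe set but not genes with each other. Signals are given for replicates 1, 2 and 3 in that order, differences with their SE, and adjusted p-values are Benjamini-Hochberg values over all 28815 probe sets.

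Of 9 measured hepatocyte markers 0 were called in WTCR or Dgat1-/-AL against WTAL, with 6 differences above 0 and 3 below in each. Albumin (Alb), the brightest of them, read 14.21 to 14.28 in the 9 arrays, and at so high a signal a change may not show. Cps1 came close to a call in WTCR (0.37 ± 0.10, 1.29-fold), with all WTCR arrays above those of WTAL. Between WTCR and Dgat1-/-AL 1 of the 9 was called (all probe sets 8.59%), Tat, higher in WTCR (0.44 ± 0.16). The 5 measured markers of pancreatic acinar cells lay between 4.56 and 6.50 and 0 were called. Dgat1 itself read 7.86, 5.67 and 8.04 in WTAL, 8.89, 8.76 and 8.56 in WTCR, and 6.13, 5.83 and 5.39 in Dgat1-/-AL. The value of the array labelled WTAL replicate 2 is as low as those of the mutants, which is contrary to its label. A second array, Dgat1-/-AL replicate 1, stood apart from all others on the second principal component of all probe sets (-42.1, against -15.9 to 15.3). Counts of called P450 members are given below for each comparison with and without these arrays. Markers of non-parenchymal cells moved too: 3 of 3 B-cell, 3 of 5 stellate, 2 of 7 Kupffer cell and 1 of 6 endothelial probe sets were lower in WTCR than in WTAL (all probe sets 3.81%). In Dgat1-/-AL 2 of 7 Kupffer cell probe sets were lower, and of the 6 endothelial probe sets 1 was higher and 2 were lower (all probe sets 0.465% higher and 0.76% lower). Of the markers of bile duct cells, fat cells and red cells 0 were called in either comparison. The mean of the Kupffer markers, relative to the WTAL mean, ran from -0.45 to 0.23 in WTAL, -0.83 to -0.07 in WTCR and -0.60 to -0.22 in Dgat1-/-AL. For the 3 B-cell markers these ranges were -0.13 to 0.17, -0.75 to -0.54 and -0.46 to -0.17. Of these markers Cd79a and Ms4a1 were dim, with group means of 3.52 to 3.96 and 3.46 to 4.41. Both lie below the 25th percentile of all probe sets (4.48). In whole liver, fewer cells of a type and less RNA per cell cannot be told apart, and the part of these shifts in the P450 values was not tested.

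Calorie restriction moved the P450 genes in both directions. In WTCR livers 15 of the 54 members (27.8%) were called against WTAL, where 8.06% of all probe sets were, and 11 were higher and 4 lower (all probe sets 4.25% higher and 3.81% lower). The genes that rose were Cyp2d9, Cyp3a11, Cyp2b10, Cyp2c39, Cyp2d22, Cyp2c54, Cyp3a25, Cyp2c50, Cyp2j9, Cyp2c38 and Cyp2c29. Those that fell were Cyp2d37-ps, Cyp2c23, Cyp2j5 and Cyp2c67. The median difference over the members was 0.12, against 0.002 over all probe sets. At an adjusted p under 0.05 limma called 6 members, 4 higher and 2 lower (all probe sets 3.03%), and the 3 WTCR and 3 WTAL arrays did not overlap in 17 members, 12 higher and 5 lower (all probe sets 19.6%).

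Without the array labelled WTAL replicate 2, 14 of the 15 calls held and Cyp2c54 was lost, and the same 14 held with Dgat1-/-AL replicate 1 left out as well. With each of the 9 arrays left out in turn, 9 of the 15 calls held throughout: Cyp2d9, Cyp2c39, Cyp3a25, Cyp2b10, Cyp2j9, Cyp2c38, Cyp2d37-ps, Cyp2j5 and Cyp2c67. The count of higher members fell to 7 without WTCR replicate 2, and the count of lower members rose to 7 without WTAL replicate 1.

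**Figure D1:**
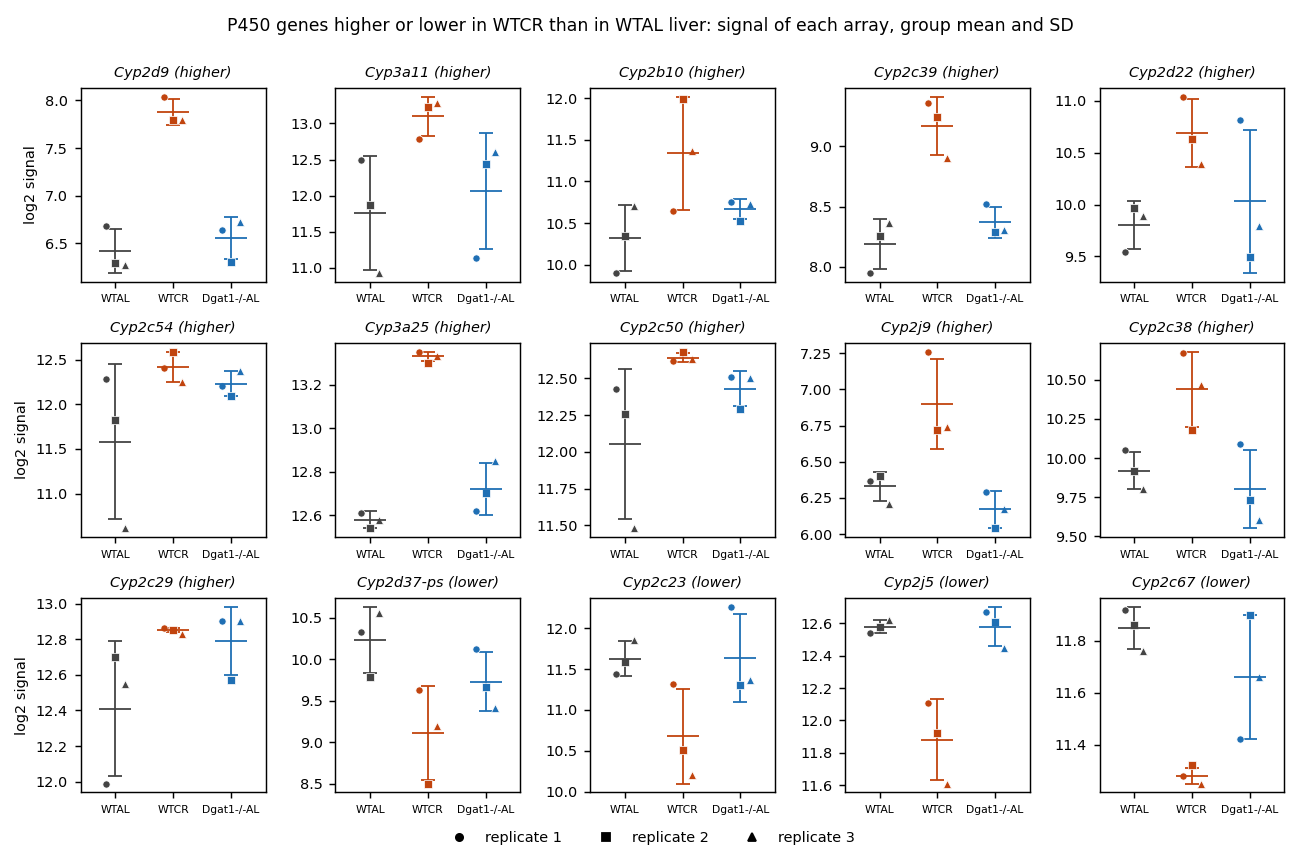
Log2 signal after RMA (y axis, a separate scale in each panel) of the 15 P450 members called in WTCR against WTAL, by group (x axis). Points are single arrays with a marker for each replicate number, long bars are group means and whiskers are SDs (n = 3 mice). In Cyp2d9, Cyp2c39 and Cyp3a25 the WTCR arrays lie above all arrays of the other groups, and in Cyp2j5 below them.

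CYP2D enzymes oxidise many basic drugs, and Cyp2d9 encodes a steroid 16-alpha-hydroxylase known as a male-predominant gene of mouse liver. It gave the largest rise of any member. Its signal was 6.68, 6.30 and 6.27 in WTAL, 8.04, 7.80 and 7.80 in WTCR, and 6.64, 6.31 and 6.73 in Dgat1-/-AL. All 3 WTCR arrays stood above all 6 others, and the WTAL and Dgat1-/-AL arrays overlapped. The difference of WTCR from WTAL was 1.47 ± 0.15 (2.77-fold, adjusted p = 0.0048) and from Dgat1-/-AL 1.32 ± 0.15 (2.50-fold, adjusted p = 0.0061). Its relative Cyp2d10, whose promoter is printed above, read 11.39, 11.36 and 11.44 in WTAL and 11.54, 11.72 and 11.41 in WTCR, and its difference of 0.16 ± 0.10 did not pass the test.

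Cyp2d22, often set beside human CYP2D6, read 9.54, 9.97 and 9.89 in WTAL, 11.04, 10.63 and 10.39 in WTCR, and 10.81, 9.49 and 9.79 in Dgat1-/-AL. Its rise with CR was 0.89 ± 0.32 (adjusted p = 0.21), and the call was lost without WTAL replicate 1 or WTCR replicate 1. The high Dgat1-/-AL value is that of replicate 1, the array that stood apart. Cyp2d37-ps, listed by RefSeq as a transcribed pseudogene, moved in the other direction. It read 10.33, 9.78 and 10.56 in WTAL, 9.63, 8.50 and 9.20 in WTCR, and 10.12, 9.66 and 9.41 in Dgat1-/-AL. It fell by -1.12 ± 0.31 with CR (adjusted p = 0.11), and its WTCR arrays lay below every WTAL array. The other 7 CYP2D members, among them Cyp2d26 (0.22 ± 0.18) and Cyp2d13 (-0.27 ± 0.26), also listed as a transcribed pseudogene, were not called. The median of the 10 CYP2D members was 0.10.

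CYP3A enzymes have wide active sites and clear a large share of known drugs. Cyp3a11, the main inducible mouse enzyme of this group and a standard readout of PXR, read 12.50, 11.87 and 10.93 in WTAL, 12.79, 13.22 and 13.28 in WTCR, and 11.14, 12.44 and 12.60 in Dgat1-/-AL. The WTCR arrays lay above both other groups, and the WTAL arrays themselves spread over 1.57. Its rise was 1.33 ± 0.46 (2.52-fold, adjusted p = 0.19), and it was lost without WTAL replicate 3 or WTCR replicate 2 or 3.

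Cyp3a25, the neighbour of Cyp3a11, gave a smaller but far tighter difference. Its signal was 12.61, 12.54 and 12.58 in WTAL, 13.35, 13.30 and 13.33 in WTCR, and 12.62, 12.70 and 12.85 in Dgat1-/-AL. It was 0.75 ± 0.07 higher in WTCR (1.68-fold, adjusted p = 0.0041), and with each array left out the difference stayed between 0.73 and 0.77. The several-symbol probe set of Cyp3a59, Cyp3a57 and Cyp3a25 moved the same way, from 11.25 ± 0.06 (SD, n = 3) in WTAL to 12.18 ± 0.08 in WTCR. Its difference was 0.93 ± 0.15 (adjusted p = 0.018).

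The remaining CYP3A members were not called in WTCR. Cyp3a13, a member also known from the intestine, was 0.34 ± 0.10 higher (adjusted p = 0.13) with arrays that did not overlap, at a fold of 1.27. Cyp3a57, one of the dimmest members, was 0.28 ± 0.12 higher (1.21-fold). Cyp3a44, a female-predominant gene, read 11.23, 11.85 and 11.85 in WTAL and 11.30, 11.72 and 12.01 in WTCR (0.04 ± 0.23). Cyp3a16, a female-predominant and fetal-type gene, gave the lowest difference of all members at -1.41 ± 0.81, but its WTAL arrays spread over 2.84 and it did not pass the test (adjusted p = 0.50). Over the 6 CYP3A members the median difference was 0.31.

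CYP2C is the largest subfamily here with 13 members, and its enzymes epoxidise arachidonic and linoleic acid as well as clearing drugs. In WTCR 5 of the 13 rose, 2 fell and the median was 0.31. Cyp2c39 read 7.95, 8.26 and 8.36 in WTAL, 9.36, 9.24 and 8.90 in WTCR, and 8.52, 8.29 and 8.31 in Dgat1-/-AL. The WTCR arrays stood above all others, and the rise was 0.98 ± 0.14 (1.97-fold, adjusted p = 0.015).

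Cyp2c38, the neighbour of Cyp2c39, read 10.05, 9.92 and 9.80 in WTAL, 10.67, 10.18 and 10.47 in WTCR, and 10.09, 9.73 and 9.60 in Dgat1-/-AL. It rose by 0.52 ± 0.15 (adjusted p = 0.14) without overlap with either group. Cyp2c50 and Cyp2c54, near-identical epoxygenase genes whose probes may take up each other's RNA, shared their lowest array. Cyp2c50 read 12.43, 12.26 and 11.48 in WTAL and 12.62, 12.68 and 12.63 in WTCR. Cyp2c54 read 12.29, 11.83 and 10.61 in WTAL and 12.41, 12.59 and 12.25 in WTCR. WTAL replicate 3 is the low array in both. Their differences of 0.59 ± 0.21 and 0.84 ± 0.36 (adjusted p = 0.21 and 0.31) were both lost without it, at 0.30 and 0.36. The Cyp2c50 call was also lost without WTCR replicate 2, and the Cyp2c54 call was lost without any of 8 of the 9 arrays.

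Cyp2c29, a CAR-responsive enzyme, read 11.99, 12.70 and 12.55 in WTAL and a narrow 12.86, 12.85 and 12.83 in WTCR. Its difference was 0.43 ± 0.17 (1.35-fold, adjusted p = 0.27), and it lost the call without WTAL replicate 1 or any WTCR array. Cyp2c37, another pericentral epoxygenase, passed the adjusted test at a smaller size: 12.96, 13.02 and 12.89 in WTAL against 13.22, 13.31 and 13.27 in WTCR (0.31 ± 0.07, 1.24-fold, adjusted p = 0.043). Cyp2c66 was 0.27 ± 0.07 higher (1.20-fold, adjusted p = 0.11) and not called.

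The 2 CYP2C members that fell were Cyp2c67 and Cyp2c23. Cyp2c67 read 11.92, 11.86 and 11.76 in WTAL, 11.28, 11.32 and 11.25 in WTCR, and 11.42, 11.90 and 11.66 in Dgat1-/-AL. It fell by -0.56 ± 0.11 (1.48-fold, adjusted p = 0.037), and the WTCR arrays lay below both other groups. The probe set shared by Cyp2c69, Cyp2c67, Cyp2c68 and Cyp2c40 fell alike, from 13.08, 12.98 and 13.06 in WTAL to 12.42, 12.44 and 12.47 in WTCR (-0.59 ± 0.10, adjusted p = 0.024). Cyp2c68, which lies beside Cyp2c67 and is close to it in sequence, read 11.57, 11.17 and 11.23 in WTAL and 11.12, 11.24 and 11.33 in WTCR (-0.09 ± 0.15) and was not called. The promoters of this pair both hold CAAAGTCCA. How far each probe set takes up RNA of its relatives cannot be told from the signals.

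Cyp2c23, an arachidonic acid epoxygenase known best from the kidney, read 11.44, 11.59 and 11.86 in WTAL, 11.32, 10.51 and 10.21 in WTCR, and 12.26, 11.30 and 11.37 in Dgat1-/-AL. It fell by -0.95 ± 0.32 with CR (1.93-fold, adjusted p = 0.19), and the call was lost without WTAL replicate 3 or WTCR replicate 2 or 3. Cyp2c70, which makes the mouse-specific muricholic bile acids, gave -0.34 ± 0.11 (adjusted p = 0.18), short of the fold limit at 1.27-fold.

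**Figure D2:**
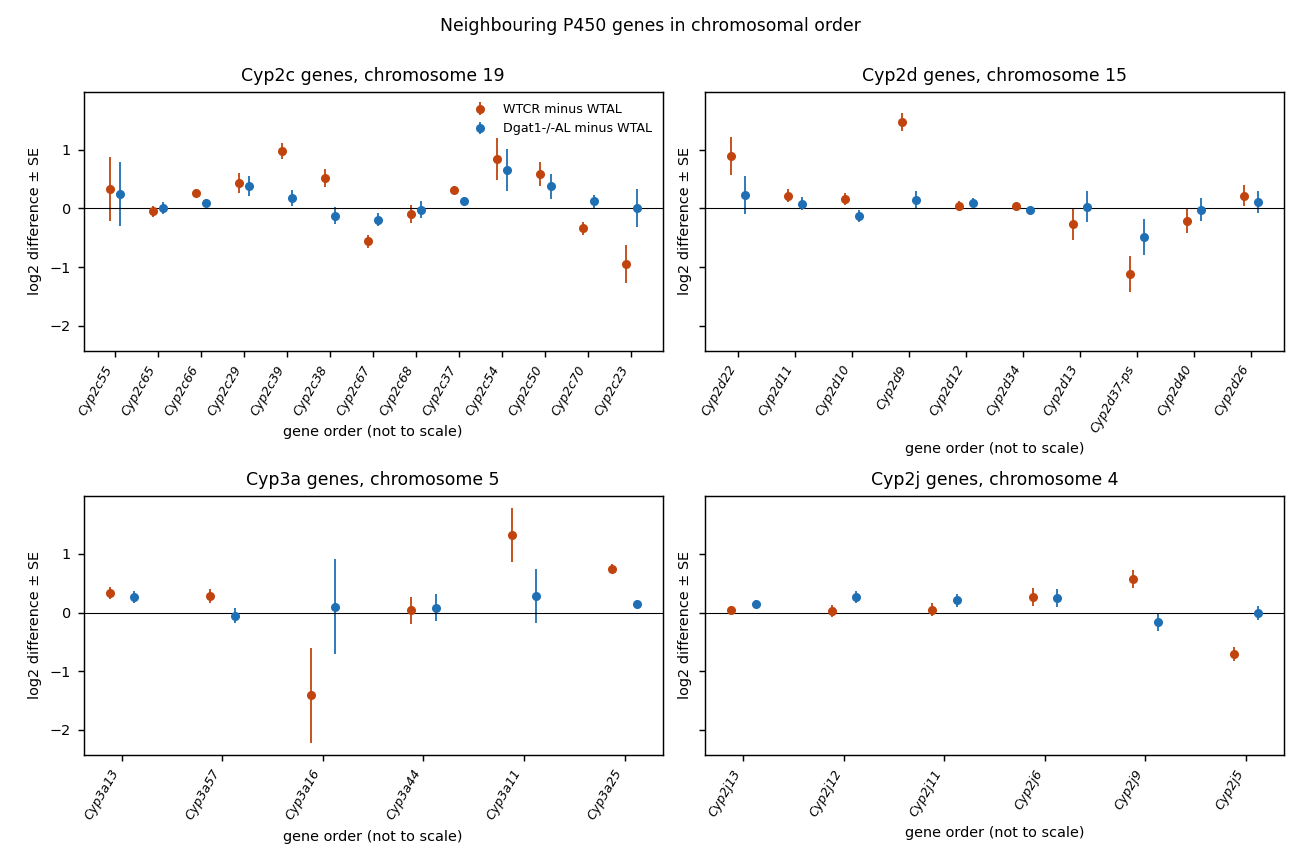
Log2 difference from WTAL (y axis, with SE) of WTCR and Dgat1-/-AL for the members of 4 clusters, in gene order along the chromosome after RefSeq GRCm38.p6 (x axis, not to scale). Neighbours differ in WTCR: Cyp2d9 lies at 1.47 beside Cyp2d10 at 0.16, Cyp2c38 at 0.52 beside Cyp2c67 at -0.56, and Cyp2j9 at 0.57 beside Cyp2j5 at -0.70.

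The CYP2J enzymes make epoxides from arachidonic acid, and the neighbours Cyp2j5 and Cyp2j9 moved apart. Cyp2j5, abundant in liver and kidney, read 12.54, 12.58 and 12.62 in WTAL, 12.11, 11.92 and 11.61 in WTCR, and 12.67, 12.61 and 12.45 in Dgat1-/-AL. It fell by -0.70 ± 0.12 (1.63-fold, adjusted p = 0.023), with the WTCR arrays below all others. Cyp2j9, best described in brain, read 6.37, 6.40 and 6.21 in WTAL, 7.26, 6.72 and 6.74 in WTCR, and 6.29, 6.04 and 6.17 in Dgat1-/-AL. It rose by 0.57 ± 0.15 (1.49-fold, adjusted p = 0.082), again with no overlap. The other 4 CYP2J members lay between 0.03 and 0.27 and were not called.

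CYP2B genes are the classic targets of CAR. Cyp2b10 read 9.90, 10.35 and 10.70 in WTAL, 10.64, 11.99 and 11.37 in WTCR, and 10.75, 10.53 and 10.73 in Dgat1-/-AL. Its mean was 1.02 ± 0.32 higher with CR (2.03-fold, adjusted p = 0.15), although WTCR replicate 1 overlapped the WTAL arrays. Cyp2b9, a female-predominant gene, read 11.84, 12.20 and 11.91 in WTAL and 12.00, 11.41 and 10.83 in WTCR, and its difference of -0.57 ± 0.25 missed the limit of the unadjusted p (0.052 in limma). Cyp2b13, Cyp2b19 and Cyp2b23 were not called.

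Members of the other subfamilies were not called with CR. Cyp1a2, which clears caffeine and aromatic amines, read 11.13, 11.73 and 11.90 in WTAL and 12.03, 11.90 and 11.89 in WTCR (0.35 ± 0.22). Cyp1a1 and Cyp1b1, the other AHR targets, gave 0.19 ± 0.11 and -0.21 ± 0.10. Cyp2e1, the ethanol-oxidising enzyme, gave 0.09 ± 0.11. Cyp2f2, a periportal enzyme that activates naphthalene, gave -0.17 ± 0.26. Cyp2r1, a vitamin D 25-hydroxylase, gave -0.06 ± 0.08 and Cyp2u1, a fatty acid hydroxylase, 0.03 ± 0.10. The several-symbol probe set of Cyp2a5 and Cyp2a4 read 11.15, 12.35 and 12.34 in WTAL and 12.66, 12.35 and 12.40 in WTCR (0.53 ± 0.30) and was not called. WTAL replicate 1 was its low array.

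**Figure D3:**
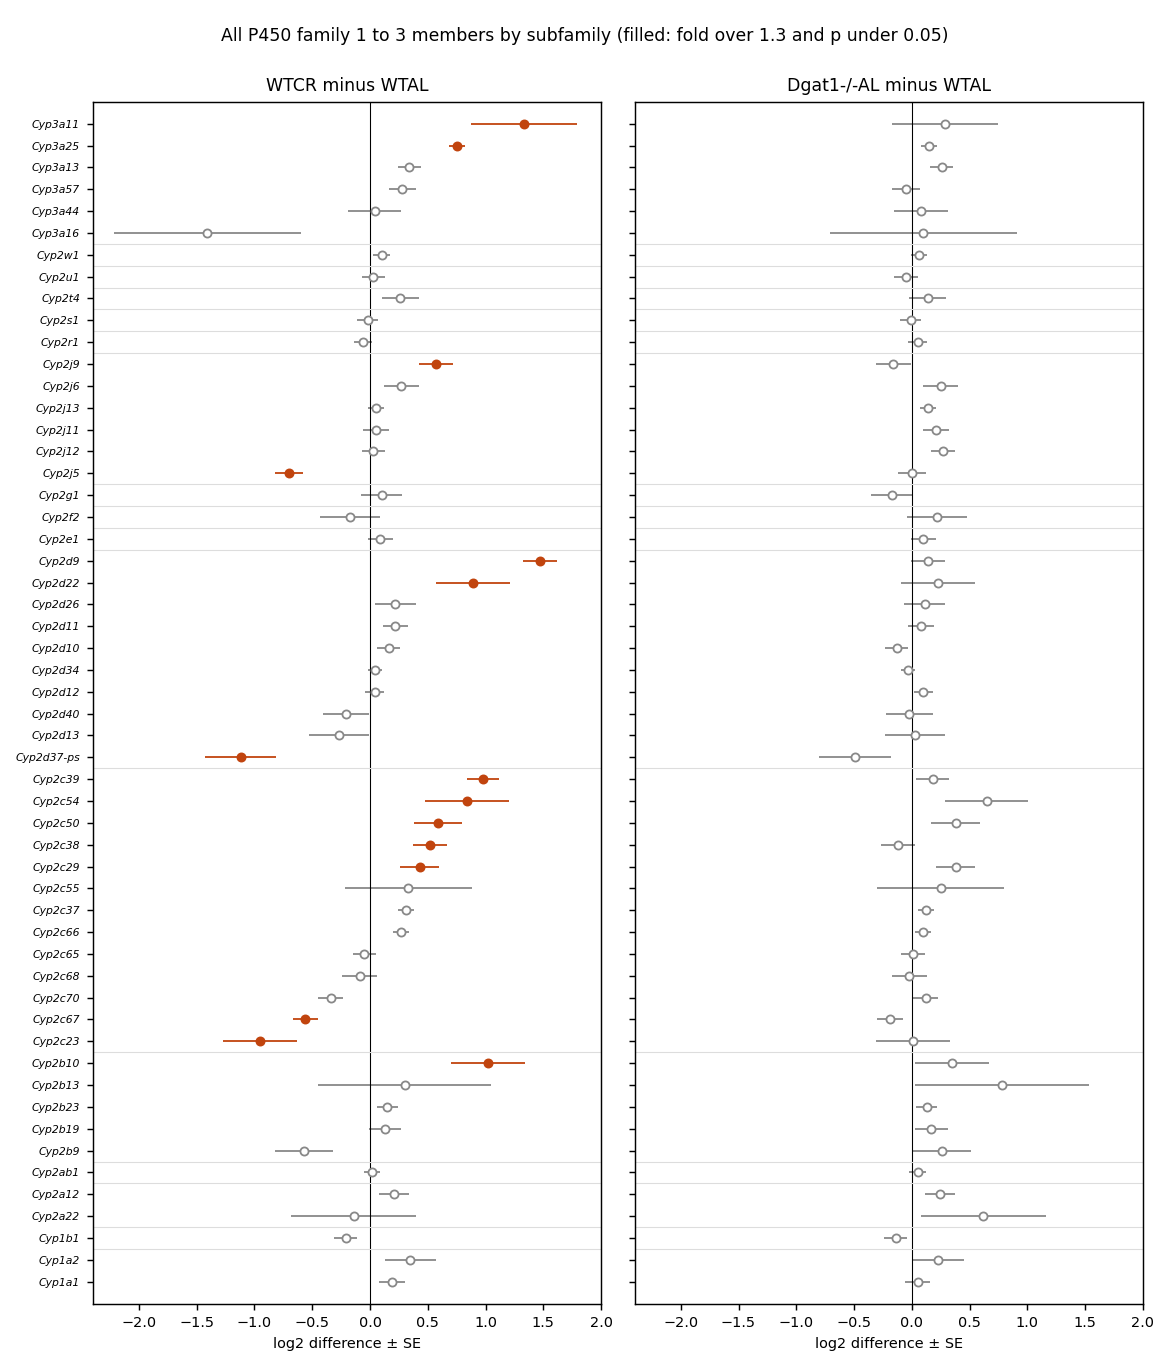
Log2 difference from WTAL with SE (x axis) for all 54 members (y axis, grouped by subfamily), for WTCR on the left and Dgat1-/-AL on the right, n = 3 mice per group. Filled points passed a fold over 1.3 and p under 0.05, 15 on the left and 0 on the right. The widest bars belong to Cyp3a16, Cyp2b13, Cyp2c55 and Cyp2a22.

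Grouped by their known regulators, 5 of the 8 measured targets of CAR or PXR rose with CR (Cyp2b10, Cyp2c29, Cyp2c50, Cyp2c54 and Cyp3a11), where 4.25% of all probe sets did, and the median of the 8 was 0.51. The same share stands behind the counts of the other groups, and 3.81% of all probe sets fell. The other 3 were Cyp2c37, Cyp2c55 (0.33 ± 0.55) and Cyp3a13, and all 8 differences were above 0. In Dgat1-/-AL against WTAL 0 of the 8 were called (all probe sets 1.23%). All 8 differences were again above 0, with a median of 0.32. Between WTCR and Dgat1-/-AL 1 of the 8 was called, Cyp3a11, higher in WTCR (all probe sets 4.66%), and the median was 0.19. The count of 5 in WTCR against WTAL rests on single arrays. It was 4 without the array labelled WTAL replicate 2, and 2 without WTAL replicate 3. Without WTCR replicate 2 it was 1, Cyp2b10. It also rests on the processing. Cyp2c29, Cyp2c50 and Cyp2c54 were not called with quantile normalization repeated, nor Cyp2c29 and Cyp2c54 in a fit of WTCR and WTAL alone. Of the 3 AHR targets 0 were called, with a median of 0.19. Of the 7 measured pericentral genes, expressed around the central vein, 4 rose, a count that was 1 without WTAL replicate 3 and 0 without WTCR replicate 2. In Dgat1-/-AL 0 of these 7 were called, but all 7 differences were above 0 with a median of 0.29. Between WTCR and Dgat1-/-AL their median was 0.19. The gene groups overlap, and these counts are not separate results. The 4 that rose are Cyp2c29, Cyp2c50, Cyp2c54 and Cyp3a11, already counted among the CAR or PXR targets, as is Cyp2b10 in the next group. Of 10 female-predominant genes listed only 5 were measured as members (Cyp2b9, Cyp2b10, Cyp2b13, Cyp3a16 and Cyp3a44). Of these 1 rose (Cyp2b10), with a median of 0.04 and a range of -1.41 to 1.02. Of the 3 male-predominant members 1 rose (Cyp2d9) with a median of 0.22. The several-symbol probe sets are not in these counts, and in WTCR 1 of those 5 was higher and 1 lower than in WTAL. All these livers were female.

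Few probe sets of any kind were called in Dgat1-/-AL livers, and 0 of the P450 members. In Dgat1-/-AL against WTAL 0 of 54 members passed the fold and p limits in limma, where 1.23% of all probe sets did (0.465% higher and 0.76% lower), and 0 passed at an adjusted p under 0.05. At an unadjusted p under 0.05 with no fold limit limma called 2 members (all probe sets 4.57%): Cyp3a13, at 10.82, 10.74 and 10.76 in WTAL and 11.21, 10.98 and 10.90 in Dgat1-/-AL (0.26 ± 0.10, 1.20-fold), and the dim Cyp2j12 (0.27 ± 0.10). Groups did not overlap in 4 members, Cyp2d10, Cyp2j12, Cyp3a13 and Cyp3a25 (all probe sets 7.02%). The median difference over the members was 0.11, against -0.002 over all probe sets, and 40 of the 54 were above 0. In WTCR, set against the same WTAL arrays, 38 of the 54 were above 0 with a median of 0.12. Between WTCR and Dgat1-/-AL 28 were above 0 and 26 below, with a median of 0.02 (all probe sets 0.005). The share of all probe sets above 0 was not counted. The highest differences in Dgat1-/-AL, Cyp2b13 at 0.78 ± 0.75 and Cyp2c54 at 0.65 ± 0.36, had SEs that leave their sign unsettled.

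The count of 0 depended on the arrays used. Without the array labelled WTAL replicate 2, Cyp2c29 was called higher at 0.52, where all 9 arrays gave 0.38 ± 0.17, and it was called without Dgat1-/-AL replicate 2 as well. Without WTAL replicate 1, Cyp2c50 and Cyp2c54 were called, and without Dgat1-/-AL replicate 1, Cyp2j6. Without both the array labelled WTAL replicate 2 and Dgat1-/-AL replicate 1, 3 members were called, with Cyp2c29 (0.46) and Cyp2j6 (0.47) higher and Cyp2d37-ps (-0.91) lower.

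WTCR and Dgat1-/-AL were also compared directly, since a call in only 1 of them does not show that they differ. Of the 54 members 10 differed (18.5%, all probe sets 8.59%), with 6 higher in WTCR (Cyp2d9, Cyp3a11, Cyp2c39, Cyp2j9, Cyp2c38 and Cyp3a25) and 4 lower (Cyp2c23, Cyp2b9, Cyp2j5 and Cyp2c70), where 4.66% and 3.93% of all probe sets were. Of these, 5 passed an adjusted p under 0.05 (all probe sets 3.06%): Cyp2d9, Cyp3a25 (0.60 ± 0.07, adjusted p = 0.0080), Cyp2j5 (-0.70 ± 0.12, 0.023), Cyp2c39 (0.80 ± 0.14, 0.026) and Cyp2j9 (0.73 ± 0.15, 0.036). The arrays did not overlap in 17 members (all probe sets 16.1%). Cyp2c38 differed by 0.63 ± 0.15. Cyp3a11, at 1.04 ± 0.46, lost the call without Dgat1-/-AL replicate 1, the array labelled WTAL replicate 2 or any WTCR array. Cyp2c23, at -0.96 ± 0.32, lost it without Dgat1-/-AL replicate 1 or WTCR replicate 2 or 3. The other 8 calls held with each array left out. The count of differing members was 9 without the array labelled WTAL replicate 2. It was 10 without Dgat1-/-AL replicate 1, and 10 without both arrays, each time with Cyp2c67 and Cyp2d22 gained.

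Cyp2b9 and Cyp2c70 were called in this comparison alone. Cyp2b9 read 12.41, 12.15 and 12.18 in Dgat1-/-AL, above the 12.00, 11.41 and 10.83 of WTCR (-0.83 ± 0.25, 1.78-fold, adjusted p = 0.14). Cyp2c70 read 13.09, 12.94 and 13.02 in Dgat1-/-AL and 12.65, 12.45 and 12.57 in WTCR (-0.46 ± 0.11, 1.37-fold, adjusted p = 0.074). Same-numbered arrays of these 2 groups deviated together, though the labels name no pairing. With the replicate number as a block in a fit of these groups alone, added after seeing the data, 15 members were called, 7 higher and 8 lower. The 5 gained were Cyp2d22, higher, and Cyp2a22, Cyp2d37-ps, Cyp2f2 and Cyp3a16, lower.

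Several P450 genes varied more between mice of the same group than between groups. The median SD within groups was 0.194 for the members and 0.128 for all probe sets, and 13 of the 54 members exceeded the 95th percentile of all probe sets (0.335). Cyp3a16 had the largest (1.19), at 9.20, 12.04 and 11.98 in WTAL, 8.59, 9.48 and 10.94 in WTCR, and 10.71, 11.62 and 11.19 in Dgat1-/-AL. Replicate 1 was its lowest array in every group. Cyp2b13 (SD 1.11) read 11.13, 10.63 and 8.20 in WTAL, 11.17, 10.60 and 9.08 in WTCR, and 10.68, 10.60 and 11.01 in Dgat1-/-AL, and was low in replicate 3 of both wild-type groups. Cyp2a22 (0.79) had a single low array, WTAL replicate 1, at 9.16 beside 11.59 and 11.05. Cyp2c55 (0.81), a gene better known from the intestine, ran from 5.72 to 7.90 within Dgat1-/-AL.

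With ties counted for replicate 1, this array was lowest in all 3 groups in 5 members, Cyp2c55, Cyp2c66, Cyp2d34, Cyp3a16 and Cyp3a44. The share of 9.26% is near the 6.71% of all probe sets, and Cyp2d34 was tied at 5.56 in all 3 WTAL arrays. Replicate 1 was also lowest in every group for both probe sets with Cyp3a41a, Cyp3a41b and Cyp3a44 among their symbols. The first of these read 13.57, 13.78 and 13.80 in WTAL, 13.18, 13.66 and 13.70 in WTCR, and 13.56, 13.77 and 13.79 in Dgat1-/-AL. Near-identical genes share this pattern, and their probe sets are not independent measurements.

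**Figure D4:**
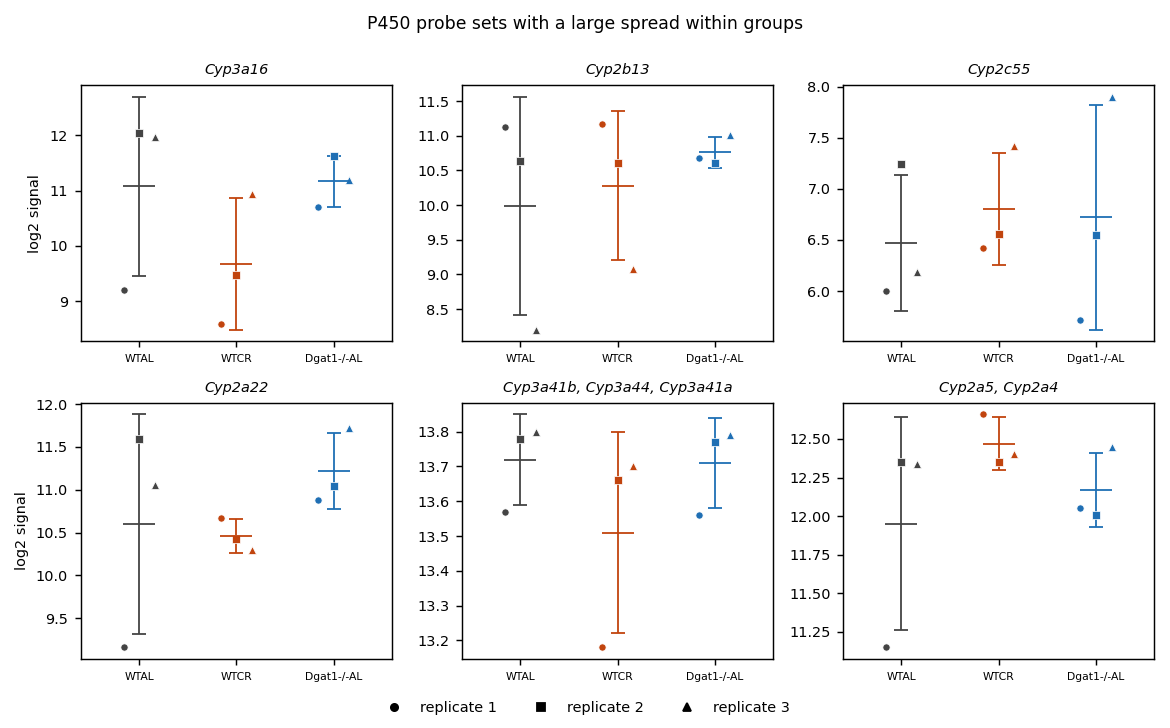
Log2 signal after RMA (y axis, a separate scale in each panel) by group (x axis) for the 4 members with the largest SD within groups and for 2 probe sets with several symbols. Points are single arrays by replicate number, long bars group means and whiskers SDs (n = 3 mice). Cyp3a16 is lowest in replicate 1 of every group, and Cyp2a22 and the Cyp2a5, Cyp2a4 probe set share their low array, WTAL replicate 1.

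The genes that regulate and serve the P450s were read from lists of their names. Of 22 measured transcription factors 6 were higher and 3 lower in WTCR (all probe sets 4.25% and 3.81%), with a median of 0.20 (all probe sets 0.002). Nr1i2, which encodes PXR, rose from 8.72, 8.94 and 8.66 in WTAL to 9.13, 9.19 and 9.25 in WTCR (0.41 ± 0.10, 1.33-fold, adjusted p = 0.066). The call was lost without WTAL replicate 3, at 0.36. Hnf4a, just past the fold limit, rose from 10.63 ± 0.20 (SD, n = 3) to 11.03 ± 0.02 (0.40 ± 0.12, 1.31-fold), and lost the call without WTAL replicate 1. Nr1i3, which encodes CAR, and Ahr were not called (0.23 ± 0.18 and 0.02 ± 0.16). The CCAAT-binding factor Cebpb rose by 0.50 ± 0.18, a call lost without WTAL replicate 1 or WTCR replicate 1 or 2.

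Larger changes were seen in the factors that follow the daily clock. Dbp rose from 7.28, 7.99 and 6.90 to 10.20, 9.30 and 9.39 (2.24 ± 0.33, adjusted p = 0.015), Tef by 1.27 ± 0.15 (adjusted p = 0.0093) and Hlf by 0.71 ± 0.13 (adjusted p = 0.025). Their levels in liver swing over the day, and the part of the hour of collection in the P450 values was not tested. The 3 factors that fell were Esr1, the oestrogen receptor, at -0.72 ± 0.18, Stat5b, which relays the growth hormone signal, at -0.43 ± 0.12, and Onecut1, a liver homeodomain factor, at -0.75 ± 0.17. The Stat5b call was lost without WTAL replicate 3 or WTCR replicate 2. In Dgat1-/-AL Onecut1 fell too (-0.86 ± 0.17, adjusted p = 0.96), and Bcl6, a repressor of growth hormone targets, rose (0.86 ± 0.23, adjusted p = 0.97). The other 20 factors were not called there.

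Genes of haem supply were read in the same way. Alas1, the rate-limiting enzyme of haem synthesis in liver, read 8.96, 10.22 and 9.66 in WTAL, 12.04, 10.57 and 11.27 in WTCR, and 9.50, 8.69 and 9.26 in Dgat1-/-AL. All WTCR arrays stood above the others, and the rise was 1.68 ± 0.42 (3.21-fold, adjusted p = 0.076). Of 11 measured genes of haem synthesis and breakdown 3 rose (Alas1, Hmox2 at 0.71 ± 0.08 and Blvrb at 0.43 ± 0.15) and 1 fell (Uros, a synthesis enzyme, at -0.79 ± 0.13), where 4.25% of all probe sets rose and 3.81% fell, and the median of the 11 was 0.22. The Blvrb call was lost without the array labelled WTAL replicate 2 or without WTCR replicate 2. The 5 measured electron donors and their partners were not called, among them cytochrome b5 (Cyb5a, 0.14 ± 0.09). P450 reductase was not analysed here.

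Targets of the same receptors outside the P450s rose at 5 of 11 probe sets in WTCR, and 0 fell (all probe sets 4.25% and 3.81%). They were Abcb1a, a drug export pump, from 6.89, 7.07 and 7.32 to 8.44, 7.79 and 8.48 (1.14 ± 0.19, adjusted p = 0.022), Ces2a, a carboxylesterase (0.51 ± 0.11, adjusted p = 0.040), Nqo1, a quinone reductase (0.70 ± 0.18), and the glutathione transferase Gstm3 at both of its probe sets (0.99 ± 0.31 and 1.55 ± 0.48). Those not called were Gadd45b (0.58 ± 0.25), Abcc3 (0.35 ± 0.30), Aldh1a1 (0.30 ± 0.14), Abcc2 (0.22 ± 0.16), Tiparp (0.07 ± 0.10) and Aldh3a1 (0.03 ± 0.05). The median over all 11 probe sets was 0.51, and the list was not split by receptor. In Dgat1-/-AL 0 of these 11 probe sets and 0 of the 11 haem genes were called.

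**Figure D5:**
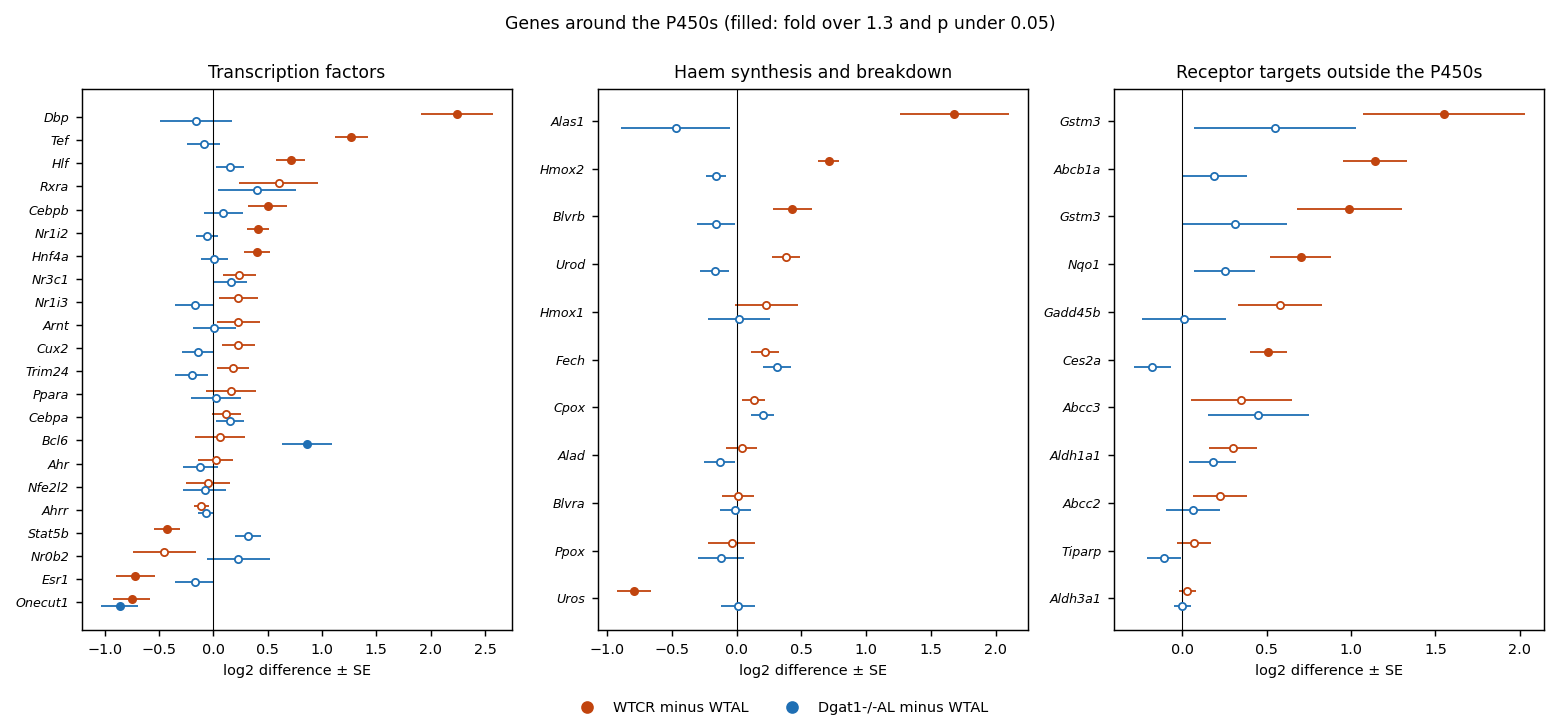
Log2 difference from WTAL with SE (x axis) of transcription factors, haem genes and receptor targets outside the P450s (y axis), for WTCR and Dgat1-/-AL, n = 3 mice per group. Filled points passed a fold over 1.3 and p under 0.05. Dbp lies at 2.24 and Alas1 at 1.68 in WTCR, and in Dgat1-/-AL only Bcl6 and Onecut1 are filled.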

How the data were processed

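The authors deposited log2 signals made with RMA (version not given in the sources used here), which corrects background, quantile-normalizes the 9 arrays and summarizes probes per probe set. Gene symbols came from the platform annotation, with 21780 probe sets of 1 symbol, 1605 of several and 5430 of none. All 28815 probe sets were kept. limma 3.58.1 in R 4.3.3 fitted 1 mean per group over 9 arrays, without a block, after testing on simulated data. A call needed a fold over 1.3 and unadjusted p under 0.05, the limits of the study's methods, and Benjamini-Hochberg values were computed over all probe sets. Named genes were every called member, a list of well-known members, the called genes of the regulator, electron donor, haem and receptor target lists with Ahr, Nr1i2, Nr1i3 and Alas1, and Dgat1. Members, lists and motifs were chosen with earlier results of these data known. Promoter windows are RefSeq's (GRCm38.p6), aligned with Biopython 1.88. The files name no genome build, so probe sets have no coordinates here. Same-numbered WTCR and Dgat1-/-AL arrays had correlated deviations from their group means (0.477, 0.252 and 0.211). The labels name no pairing and arrays of unlike number were not compared, so whether the numbers pair these groups was not tested. Arrays give no read depth, and the number of mice limits precision. In 8 members the mean signal lay below the 25th percentile of all probe sets (4.48), and 10 members had the same value to 3 decimals in 3 or more arrays (37.0% of all probe sets did).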

Additional observations from a re-analysis of the deposited data

How the results depend on the processing

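Calls rest on an unadjusted p in 3 mice per group. At an adjusted p under 0.05 with no fold limit, 4 members were higher and 2 lower in WTCR than in WTAL, and 1 member had a lower signal in WTCR livers than in Dgat1-/-AL livers. With p under 0.05 and no fold limit, 2 were higher in Dgat1-/-AL than in WTAL. With each array left out in turn, members higher in WTCR than in WTAL numbered 7 to 10 and lower members 3 to 7, members higher in Dgat1-/-AL than in WTAL 0 to 2, and members lower in WTCR than in Dgat1-/-AL 4 to 6. The CYP2B median then ran from -0.05 to 0.23 in WTCR and 0.04 to 0.37 in Dgat1-/-AL against WTAL, the CYP2C median from 0.21 to 0.34 in WTCR against WTAL and from 0.05 to 0.19 in WTCR against Dgat1-/-AL, and the CYP2J median from 0.08 to 0.24 in Dgat1-/-AL against WTAL. Without both arrays that stood apart, a fit added after seeing the data, 2 members were higher and 1 lower in Dgat1-/-AL than in WTAL. With dim probe sets left out, the CYP2J median was 0.27 in WTCR and 0.00 in Dgat1-/-AL against WTAL and 0.02 between WTCR and Dgat1-/-AL, because the dim CYP2J genes leave the list. The replicate number as a block in a fit of WTCR and Dgat1-/-AL alone, also added after seeing the data, gave 8 members lower in WTCR. For same-numbered WTAL arrays the correlations were -0.233, 0.0454 and -0.0749 with WTCR and -0.325, -0.0857 and -0.229 with Dgat1-/-AL. With a replicate block over all 9 arrays 10 members were higher and 6 lower in WTCR than in WTAL, and 0 were called in Dgat1-/-AL. The counts over all members, per comparison and direction, stayed within 1.5 times their values in the remaining settings. These were the fit of the compared groups alone, the trend and robust prior, array weights, both scalings, and the addition of several-symbol probe sets. Single calls still changed, as given above for Cyp2c29, Cyp2c50 and Cyp2c54. Choosing 1 probe set per gene changed nothing, since each gene has 1. Where no other reason is given, the cause was not tested.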

Other observations

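Beyond families 1 to 3, 33 probe sets of other P450 families carried 1 symbol, and in WTCR livers 7 were higher and 4 lower than in WTAL (33.3%, all probe sets 8.06%, with 4.25% higher and 3.81% lower). Cyp26a1, which degrades retinoic acid, read 6.88, 8.30 and 8.52 in WTAL and 10.15, 10.04 and 10.57 in WTCR (2.35 ± 0.41, adjusted p = 0.023). Cyp39a1, an oxysterol hydroxylase of bile acid synthesis, rose by 1.52 ± 0.24 (adjusted p = 0.018). All 5 measured fatty acid omega-hydroxylases of CYP4A rose, with Cyp4a14 at 1.38 ± 0.17, Cyp4a31 at 1.15 ± 0.21, Cyp4a10 at 0.83 ± 0.17, and the dim Cyp4a12a and Cyp4a12b at 0.81 ± 0.23 and 0.77 ± 0.18. Those that fell were Cyp8b1, which makes cholic acid (-1.02 ± 0.35), Cyp4f14 (-0.93 ± 0.23), Cyp7b1 (-0.59 ± 0.15) and the sterol demethylase Cyp51 (-0.45 ± 0.17). The Cyp8b1 call was lost without WTAL replicate 3 or WTCR replicate 1 or 3, and the Cyp51 call without WTAL replicate 1 or WTCR replicate 2.

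In Dgat1-/-AL livers 2 of the 33 were called (all probe sets 1.23%). Cyp4a14 was higher (0.42 ± 0.17) and Cyp7a1, the rate-limiting enzyme of bile acid synthesis, lower at 10.63, 11.73 and 11.38 beside 11.79, 11.93 and 12.21 in WTAL (-0.73 ± 0.25, adjusted p = 0.97). The Cyp4a14 call was lost without any of 5 of the 9 arrays, Dgat1-/-AL replicate 1 among them, and the Cyp7a1 call without WTAL replicate 3. These genes were named after their values were seen.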
